A study of Mus musculus with 6 samples.

Results

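Sterol synthesis, uptake and efflux were followed through 31 genes of brown adipose tissue, all of which were found by symbol among the 45320 Ensembl gene identifiers of the tables. The members were a list chosen with earlier results of these data known. It held 18 enzymes that carry acetyl-CoA to cholesterol or to its isoprenoid branch and 4 genes of the sterol-sensing machinery. The list also held 4 genes of intracellular sterol transport and storage, the 2 liver X receptors (LXR) and 3 LXR targets. Levels are in FPKM, fragments scaled to transcript length and to the mapped fragments of the library. All 31 averaged 1 FPKM or more across libraries and so belonged to the 13527 genes tested.

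The tissue came from C57BL/6 mice that received a calorie-rich diet high in sugar and fat from 4 weeks of age. After 4 weeks, 1 group stayed on this diet alone (samples 13, 14 and 15, called untreated). The other group had RO5508887 added to its food, a compound under study that blocks the aspartyl protease BACE1 (samples 17, 33 and 35, called treated). Neither dose nor length of drug treatment is given in the sources used here. Samples 33 and 35 had the same value for every identifier and were counted as 1 library, treated 33/35, which leaves 3 untreated and 2 treated libraries of total RNA from whole tissue. The labels name no individual animals, so each p-value reflects sample-to-sample spread that may be purely technical.

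Cells regulate their sterols by a pair of opposed transcriptional circuits. When membrane sterol is low, the SCAP protein escorts the transcription factor SREBP2 (gene Srebf2) out of the endoplasmic reticulum, and SREBP2 raises the genes of the mevalonate and sterol pathways; the INSIG proteins hold the complex back when sterol is plentiful. Oxysterols formed from excess cholesterol bind LXR, which raises the exporters ABCA1 and ABCG1 and MYLIP, a ubiquitin ligase that lowers lipoprotein uptake. Brown fat burns fuel for heat, and adipocytes in general hold a large store of free cholesterol.

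The promoters of some of these genes carry the letters that the 2 circuits are known to read, and 5 are shown: a synthesis enzyme with a sterol element, a steady and a variable enzyme, and 2 LXR targets that varied differently. They were chosen after their values were seen. RefSeq entries on GRCm38.p6 matched 25 of the 31 members; Fdps, Fdft1, Sqle, Stard4, Npc1 and Abcg1 had none. The 250 bases before each start were searched on both strands for a sterol regulatory element (TCACNCCAC), for the box of the factor NF-Y (CCAAT), a partner of SREBP at many promoters, and for a DR4 element, the spaced repeat that LXR binds. The motifs do not share letters in the windows shown. Each sequence runs 5′ to 3′ on the strand of the gene and ends just before the start, with every match in capitals (an NF-Y box on the other strand reads as its reverse complement).

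Hmgcs1, the first committed enzyme before mevalonate and the most abundant member, chr13:119690101-119690350, plus strand: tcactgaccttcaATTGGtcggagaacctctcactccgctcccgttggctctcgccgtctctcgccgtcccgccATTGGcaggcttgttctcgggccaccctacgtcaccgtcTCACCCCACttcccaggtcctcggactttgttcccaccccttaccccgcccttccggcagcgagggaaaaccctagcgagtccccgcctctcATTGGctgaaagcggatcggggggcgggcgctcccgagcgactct

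Mvk, mevalonate kinase, the synthesis enzyme that varied least, chr5:114444019-114444268, plus strand: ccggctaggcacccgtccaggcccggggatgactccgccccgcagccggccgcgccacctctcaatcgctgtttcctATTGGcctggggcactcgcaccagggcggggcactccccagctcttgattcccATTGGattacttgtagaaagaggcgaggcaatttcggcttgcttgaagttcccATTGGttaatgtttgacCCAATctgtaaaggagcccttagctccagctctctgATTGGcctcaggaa

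Nsdhl, a sterol dehydrogenase that varied widely, chrX:72918271-72918520, plus strand: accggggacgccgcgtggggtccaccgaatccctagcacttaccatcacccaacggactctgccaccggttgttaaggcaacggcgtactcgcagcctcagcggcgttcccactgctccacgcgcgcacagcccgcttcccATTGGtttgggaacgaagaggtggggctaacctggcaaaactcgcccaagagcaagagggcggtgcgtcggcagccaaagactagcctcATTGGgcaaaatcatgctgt

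Abca1, the LXR-driven cholesterol exporter, chr4:53159896-53160145, minus strand: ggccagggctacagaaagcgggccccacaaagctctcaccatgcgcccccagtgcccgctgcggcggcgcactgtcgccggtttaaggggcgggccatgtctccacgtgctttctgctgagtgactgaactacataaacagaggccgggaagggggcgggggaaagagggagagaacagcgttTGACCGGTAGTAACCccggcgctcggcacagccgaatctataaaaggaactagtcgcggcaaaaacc

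Mylip, the LXR target with the smallest range of all members, chr13:45389492-45389741, plus strand: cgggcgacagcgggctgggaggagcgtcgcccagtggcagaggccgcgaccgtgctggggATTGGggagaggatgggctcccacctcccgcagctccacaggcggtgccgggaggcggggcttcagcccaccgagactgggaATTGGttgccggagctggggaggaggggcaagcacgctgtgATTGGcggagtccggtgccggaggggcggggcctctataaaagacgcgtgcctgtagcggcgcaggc

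The letters TCACNCCAC occurred in Hmgcs1 alone among the 25 members, 137 bases before the start, against 1.22% of the 27025 genes with an entry. Forms of the sterol regulatory element that differ from these letters were not searched, so their absence from the other members is not shown. The DR4 element occurred in Abca1 alone, 67 bases before the start, against 0.215% of all genes; its pattern had been written to include the known element of that gene, so this match was partly built in. NF-Y boxes were the common feature: 13 of the 14 synthesis enzymes with an entry held at least 1 (Acat2 held none), and 20 of the 25 members, against 37.5% of all genes. Mvk held 5 of them and Nsdhl held 2, and Mylip, which is no synthesis enzyme, held 3. All members are protein-coding and averaged 1 FPKM or more, whereas the genes they are set against here were not limited to such genes. A match describes the letters of the window only.

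Muscle and brown fat transcripts separated the libraries in a way that touches every result that follows. Of the FPKM summed over nuclear genes, the 26 skeletal muscle markers made up 7.46% in untreated 14, 3.07% in treated 17 and 1.33% in treated 33/35, but 0.0322% and 0.0309% in untreated 13 and 15. The share of the 11 brown adipocyte markers was 0.519% in untreated 14, and elsewhere it was 1.15% to 1.48%. In bulk tissue, fewer cells of a type and less RNA per cell cannot be told apart. Macrophage markers took 0.0280% to 0.0492%, and the 5 hepatocyte markers at most 0.00235%, with Cyp3a11 listed at 0 in every library. Bace1, whose protein the drug inhibits, stood at 9.76, 13.7 and 10.3 FPKM without the drug (11.3 ± 2.13, SD, n = 3) and at 11.7 and 12.3 FPKM with it (12.0 ± 0.372, SD, n = 2). Relative to untreated 13, sequencing depth estimated from the steps between low values was 0.809 to 1.02. Read totals were unknown.

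**Figure D1:**
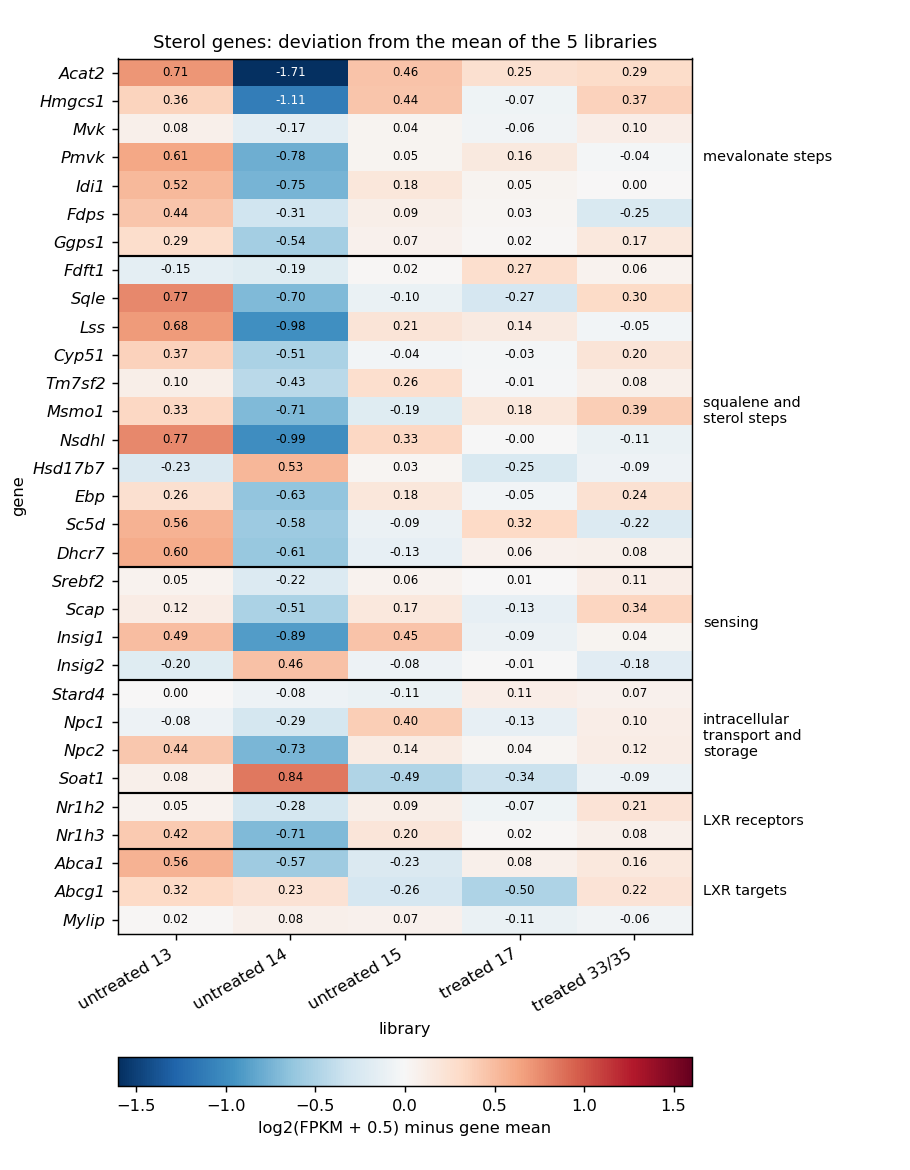
Each cell gives a gene's log2(FPKM + 0.5) in 1 library minus its mean over the 5 libraries, with genes grouped by role and libraries in columns. The column of untreated 14 is the lowest for 25 of the 31 genes, and Insig2, Hsd17b7, Soat1 and Mylip are highest there.

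Among the early, mevalonate steps, untreated 14 was the lowest library for each gene, by a wide margin for Acat2 and Hmgcs1 and a small one for Mvk and Fdps, and the treated libraries did not stand apart. For Hmgcs1, untreated 13, 14 and 15 gave 127, 45.5 and 135 FPKM, and treated 17 and 33/35 gave 94.3 and 128 FPKM. Acat2, a cytosolic thiolase at the head of the pathway, measured 82.7, 15.0 and 69.6 FPKM without and 60.1 and 61.7 FPKM with it, the widest range of all members at 5.50-fold. Both treated values of Acat2 thus lay above untreated 14 and below untreated 13 and 15. The same order held for Idi1, which isomerises the isoprene unit, at 21.1, 8.47 and 16.5 FPKM against 15.0 and 14.6 FPKM. It also held for Fdps, the farnesyl diphosphate synthase, at 48.9, 28.7 and 38.1 FPKM against 36.6 and 30.2 FPKM.

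Pmvk, the second kinase of the pathway, measured 54.0, 20.2 and 36.3 FPKM without the drug and 39.1 and 34.2 FPKM with it. Its neighbour Mvk was nearly level, at 12.2, 10.2 and 11.8 FPKM against 11.01 and 12.3 FPKM, a range of 1.21-fold. Ggps1, which feeds geranylgeranyl groups to proteins, measured 11.4, 6.23 and 9.76 FPKM against 9.40 and 10.5 FPKM. All 7 genes of these steps were lowest in untreated 14. Of the 7, 0 passed the test for a change with the drug. Acat2 had a log2 change of 0.45 (SE 0.80) and Fdps of -0.18 (SE 0.27), each with a limma adjusted p of 1.00.

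Some of these values rest on reads that other genes can claim. Of the 50-base stretches of Acat2's longest transcript, 45.9% also occur in transcripts of Acat3, a neighbouring copy that measured 11.9 FPKM in untreated 14 and 17.9 to 22.1 FPKM elsewhere. Fdps shared 86.4% with other genes, mostly the overlapping model Gm43738, which stayed between 0.154 and 0.550 FPKM, and Idi1 shared 21.3%. How the counting split such reads was not given in the sources used here, so the levels of these 3 genes are uncertain. Exons of Hmgcs1 overlap the antisense gene Gm48342 over 12.1% of their bases. Those of Scap, a sensing gene, overlap 5830462I19Rik on the opposite strand over 13.2%. Exons of Tm7sf2, of the later sterol steps, overlap Vps51 on the same strand over 12.1%, and Vps51 measured 13.2 to 18.9 FPKM. The strand setting of the counting was not given either.

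The squalene and sterol steps followed untreated 14 in the same way, with 10 of 11 genes lowest there. Sqle, squalene epoxidase and a control point of the pathway, measured 6.14, 1.89 and 3.13 FPKM without the drug and 2.72 and 4.30 FPKM with it. Lss, which closes the sterol rings, measured 15.3, 4.50 and 10.9 FPKM against 10.4 and 9.03 FPKM. Nsdhl measured 31.2, 8.86 and 22.8 FPKM against 18.1 and 16.8 FPKM. In Lss and Nsdhl both treated values lay between untreated 14 and the remaining untreated libraries, whereas treated Sqle spanned untreated 15.

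Other enzymes of these steps varied less than Nsdhl, whose range of 3.52-fold was the widest of the 11. Cyp51, which removes a methyl group of lanosterol, measured 8.35, 4.30 and 6.14 FPKM without the drug and 6.21 and 7.35 FPKM with it. Msmo1, the next methyl oxidase, measured 9.48, 4.36 and 6.44 FPKM against 8.52 and 9.93 FPKM and had the highest log2 change of all members, 0.48 (SE 0.34), with overlapping groups. Dhcr7, the last reductase, measured 15.7, 6.51 and 9.26 FPKM against 10.7 and 10.8 FPKM.

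Sc5d, a sterol desaturase, was spread widely within both groups, at 49.0, 22.0 and 31.03 FPKM without the drug and 41.4 and 28.4 FPKM with it. Ebp, a sterol isomerase, measured 15.3, 7.98 and 14.4 FPKM without the drug and 12.2 and 15.1 FPKM with it. Tm7sf2, a sterol reductase, ranged from 4.15 FPKM in untreated 14 to 7.03 FPKM in untreated 15, with the treated libraries at 5.70 and 6.14 FPKM. Hsd17b7, a keto-reductase of the same segment, was the exception to the group: it was highest in untreated 14, at 4.67 FPKM. Untreated 13 and 15 gave 2.55 and 3.15 FPKM for it, and the treated libraries 2.52 and 2.87 FPKM.

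Fdft1, squalene synthase, was the synthesis enzyme whose groups did not overlap. Untreated 13, 14 and 15 gave 20.2, 19.6 and 22.8 FPKM (20.9 ± 1.69, SD, n = 3), and treated 17 and 33/35 gave 27.3 and 23.4 FPKM (25.4 ± 2.76, SD, n = 2). Treated 33/35 exceeded untreated 15 only narrowly. The log2 change was 0.28 (SE 0.16, limma unadjusted p = 0.149, limma adjusted p = 1.00) and did not pass the test. Fdft1 (chr14:63145150-63179578, minus strand) overlaps the exons of Ctsb, a lysosomal protease on the opposite strand, over 774 bases or 18.3% of its own exon bases. Ctsb measured 269, 155 and 246 FPKM without and 228 and 231 FPKM with the drug, and without strand information reads of the overlap cannot be assigned.

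**Figure D2:**
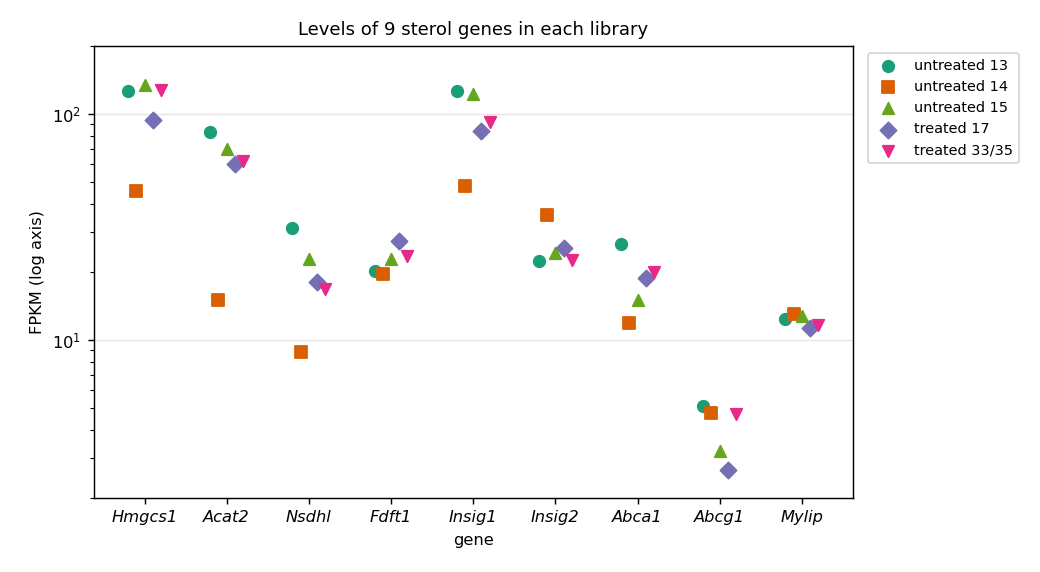
FPKM on a log axis for 9 of the 31 genes, 1 point per library. Untreated 14 is far below the other libraries for Hmgcs1, Acat2, Nsdhl and Insig1, and is the highest point for Insig2, while Fdft1 has both treated points above the untreated ones and Mylip both below.

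The sensing genes differed in how much they varied, from 1.28-fold for Srebf2 to 2.63-fold for Insig1. Srebf2 itself hardly varied, at 7.995, 6.53 and 8.04 FPKM without the drug and 7.75 and 8.34 FPKM with it. Scap measured 11.5, 7.24 and 11.9 FPKM against 9.61 and 13.5 FPKM, with a log2 change of 0.18 (SE 0.29). Insig1, the SREBP-induced retention factor, measured 126, 48.0 and 123 FPKM against 83.8 and 91.96 FPKM. Insig2, the related factor that is not driven by SREBP in the same way, ran the other way at 22.4, 35.7 and 24.2 FPKM against 25.6 and 22.6 FPKM, with a log2 change of -0.16 (SE 0.25). Scap and Insig2 each had a limma adjusted p of 1.00.

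The proportion of the 2 INSIG transcripts to each other therefore differed between libraries. Insig1 was 5.64 and 5.07 times as abundant as Insig2 in untreated 13 and 15, 1.35 times in untreated 14, and 3.28 and 4.06 times in treated 17 and 33/35. Over untreated 14, treated 17 and treated 33/35 the ratio was higher where the muscle marker share was lower (7.46%, 3.07% and 1.33%), and it was highest in the libraries with few muscle transcripts; the part of muscle in it was not tested. Being a ratio within a library, it shows unequal levels of the pair and does not itself show which of them moved. In FPKM, Insig1 was lowest and Insig2 highest in untreated 14.

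Transport and storage genes had no common pattern. Npc2, the soluble lysosomal cholesterol carrier, measured 105, 46.2 and 84.8 FPKM without the drug and 79.1 and 84.2 FPKM with it. Its membrane partner Npc1 peaked in untreated 15, with 14.1, 12.1 and 19.8 FPKM against 13.5 and 16.0 FPKM. Soat1, which esterifies cholesterol for storage, was the lowest of all members and highest in untreated 14, with 1.47, 2.85 and 0.832 FPKM against 0.970 and 1.25 FPKM. The macrophage marker share was also highest in untreated 14 (0.0492%) and lowest in untreated 15 (0.0280%), and its part in the Soat1 values was not tested.

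Stard4, a cytosolic sterol carrier and SREBP2 target, had groups that did not overlap. It measured 2.07, 1.93 and 1.88 FPKM without the drug (1.96 ± 0.0942, SD, n = 3) and 2.27 and 2.20 FPKM with it (2.23 ± 0.0484, SD, n = 2). The log2 change was 0.15 (SE 0.18, limma adjusted p = 1.00). The sign of the change turned with quantile normalization and with centring on the brown adipocyte markers.

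The LXR receptors were expressed at like levels, with means of 37.6 FPKM for Nr1h3 (LXR alpha) and 36.4 FPKM for Nr1h2 (LXR beta) over the 5 libraries. Nr1h3 measured 48.8, 22.0 and 41.9 FPKM without the drug and 36.9 and 38.5 FPKM with it, a log2 change of 0.08 (SE 0.38). Nr1h2 measured 37.5, 29.6 and 38.6 FPKM against 34.4 and 42.0 FPKM, a log2 change of 0.12 (SE 0.20). Both had a limma adjusted p of 1.00. Nr1h3 exceeded Nr1h2 in untreated 13 and 15 and in treated 17, and was below it in untreated 14 and treated 33/35.

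The 3 LXR targets did not move together. Abca1 stood at 26.4, 11.8 and 15.0 FPKM without the drug, lowest in untreated 14, and at 18.8 and 20.0 FPKM with it. Abcg1, which passes cholesterol to lipoprotein particles, measured 5.06, 4.72 and 3.22 FPKM against 2.66 and 4.70 FPKM, so that its lowest value was in treated 17 and not in untreated 14. Abca1 was 2.51 times Abcg1 in untreated 14 and 7.08 times in treated 17, with the other libraries between.

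Mylip was the member with the narrowest range, 1.15-fold, and its groups did not overlap. It measured 12.3, 12.9 and 12.8 FPKM without the drug (12.7 ± 0.309, SD, n = 3) and 11.3 and 11.7 FPKM with it (11.5 ± 0.287, SD, n = 2). The log2 change was -0.14 (SE 0.13, limma adjusted p = 1.00).

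Set against each other, the scores of the synthesis enzymes and of the listed LXR targets differed mainly in how far untreated 14 fell. The 17 enzymes from Acat2 to Dhcr7 without Ggps1, the SREBP2-driven set, were scored in each library by their mean deviation from each gene's 5-library mean on the log2 scale. The score was 0.40, -0.63 and 0.10 in untreated 13, 14 and 15 and 0.04 and 0.08 in treated 17 and 33/35. The LXR targets Abca1, Abcg1 and Mylip scored 0.30, -0.09 and -0.14 without and -0.18 and 0.11 with the drug. This score averages unlike members. Untreated 14 minus the mean of untreated 13 and 15 was -0.73 for Abca1, 0.20 for Abcg1 and 0.04 for Mylip, in log2 units. Abca1 was thus close to the synthesis median of -0.84 for the same difference. LXR targets beyond these genes were not scored, so the contrast is not shown for such targets as a class. The difference of the scores was 0.10, -0.54 and 0.25 in the untreated libraries and 0.22 and -0.03 in the treated ones. The treated values of the difference lay inside the untreated range, and the group means differed by 0.16, less than the SD of 0.42 between untreated libraries.

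**Figure D3:**
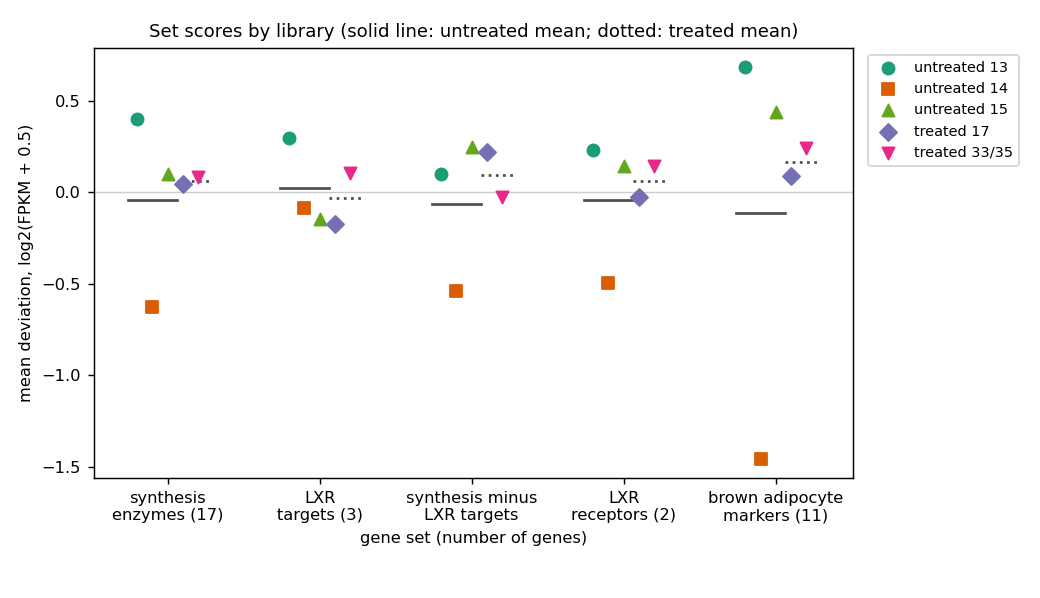
Points give the mean deviation on the log2(FPKM + 0.5) scale of each gene set in each library, and lines the group means. Untreated 14 is lowest for the synthesis enzymes (-0.63), the LXR receptors (-0.50) and the brown adipocyte markers (-1.46) but not for the LXR targets, and the treated points lie within the untreated range except for the LXR targets, where treated 17 (-0.18) is just below untreated 15 (-0.14).

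Untreated 14 was the lowest library for 16 of the 17 synthesis enzymes and 25 of all 31 members, or 94.1% and 80.6%, against 43.9% of the genes tested. For the LXR targets the count was 1 of 3. The synthesis enzymes had a median log2 difference of -0.84 between untreated 14 and the mean of untreated 13 and 15, from -2.30 for Acat2 and -1.54 for Nsdhl to 0.63 for Hsd17b7. The median over all genes was -0.08, and that of the brown adipocyte markers -1.41. Relative to those markers the synthesis score was therefore highest in untreated 14, at 0.83, and between -0.34 and -0.05 in the other libraries. The synthesis scores of the treated libraries (0.04 and 0.08), which had intermediate muscle marker shares, lay between that of untreated 14 and those of untreated 13 and 15, and the part of tissue composition in this order was not tested.

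Untreated 13 and 15, the libraries with few muscle transcripts, also differed from each other in sterol genes. Untreated 13 was above untreated 15 for 13 of 17 synthesis enzymes (76.5%) and 21 of 31 members (67.7%), against 59.6% of all genes. Sqle was 1.96 times, Dhcr7 1.69 times and Sc5d 1.58 times as high in untreated 13, and Abca1 1.75 times and Abcg1 1.57 times. Hmgcs1, Fdft1, Tm7sf2 and Hsd17b7 were higher in untreated 15. Synthesis and efflux genes were thus both among those higher in untreated 13. These are single libraries of 1 group, and the difference has no replicate check.

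For treated against untreated, 0 of the 31 members passed the test (limma, adjusted p under 0.05 over all genes), where 6 of 13527 genes, 0.0444%, passed. At a limma unadjusted p under 0.05 the count was 0 of 31 members and 125 of the 13527 genes tested. The log2 change was above 0 in 22 members and below 0 in 9, and its median was 0.09 beside 0.06 over all genes. Of the 13527 genes tested, 8704 were above 0 and 4823 below 0. The synthesis enzymes had a median of 0.09, with 14 of 17 above 0, and the LXR targets of -0.14, with 1 of 3 above 0. The LXR target median was the value of Mylip, and with Abca1 and Abcg1 only it was -0.015. Scaling moved the direction of the synthesis set. With libraries scaled to the same median the synthesis median was -0.02, beside -0.05 over all genes. Centred on the brown adipocyte markers the synthesis median was -0.19, beside -0.22. The groups did not overlap, with the treated libraries higher, in 2 members (6.45%, Fdft1 and Stard4), against 5.5% of all genes, and with the treated libraries lower in 1 member (3.23%, Mylip), against 3.18%. These shares are near those of all genes.

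Much of the spread came from untreated 14, and without it the direction of the synthesis genes turned. The median log2 change of the synthesis enzymes was then -0.18, with 15 of 17 lower and Fdft1 and Msmo1 higher, beside 0.01 over all genes. Of all 13368 genes tested without untreated 14, 6451 were lower and 6917 higher. Insig1 and Nsdhl, named after their values were seen, had the smallest p of the members in that comparison. Insig1 had a log2 change of -0.50 (SE 0.10, limma adjusted p = 0.143) and Nsdhl of -0.60 (SE 0.18, limma adjusted p = 0.316). A limma unadjusted p under 0.05 was found there for 2 of 31 members and for 1634 of the 13368 genes. Of the 31 members, 0 passed there, where 158 of 13368 genes did, or 1.18%. In that comparison the untreated libraries had a muscle share of at most 0.0322% and the treated ones of at least 1.33%, so the drug and the muscle share cannot be told apart. With the mean log2 muscle marker level as a covariate, fitted to only 5 libraries, the synthesis median was 0.49. Of the 31 members, 3 passed as higher there, Acat2, Hmgcs1 and Insig1, where 13.9% of all genes passed. In FPKM, both treated values of each of these genes lay within the untreated range, so their calls rest on the fitted muscle term. With the summed muscle FPKM as the covariate the synthesis median was 0.06, 0 members passed and 2.0% of all genes did.

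**Figure D4:**
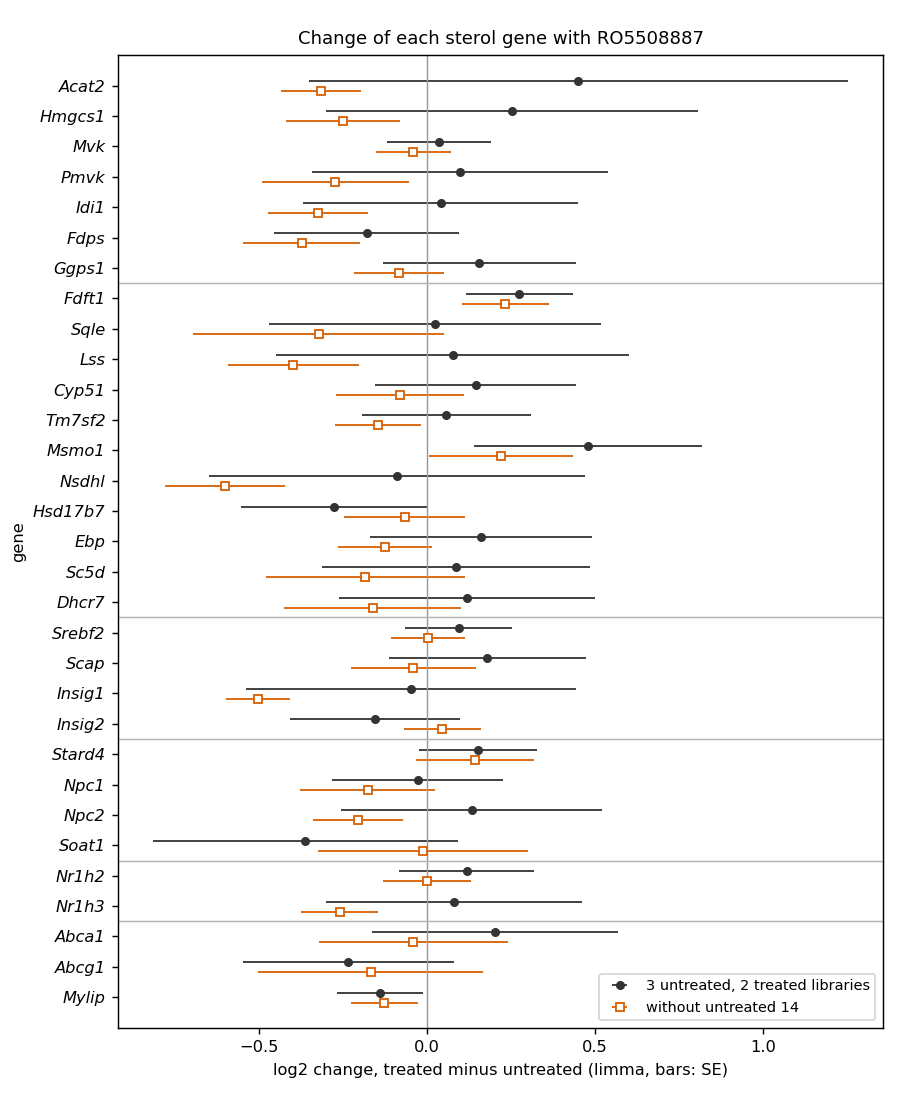
Log2 change, treated minus untreated, of each sterol gene with its SE from limma, for all 5 libraries (filled) and without untreated 14 (open). Without untreated 14 the values of 15 of the 17 synthesis enzymes are below 0, and those of Fdft1 and Msmo1 above it.

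The wider pathway was taken from a list of other sterol genes. Of 21 further synthesis and control genes found by symbol, 19 were tested and 0 passed. Of the 19, 17 had a log2 change above 0 and 2 below 0, and the median was 0.12. Over all genes, 8704 of 13527 were above 0 and the median was 0.06. Untreated 14 was lowest for 12 of the 19 (63.2%), against 43.9% of all genes. Of 31 further transport, oxysterol and lipoprotein genes, 25 were tested, 18 had a log2 change above 0 and 7 below 0, and 0 passed, with a median of 0.10. Untreated 14 was lowest for 12 of these 25 (48.0%), a share near that of all genes. The groups did not overlap in 1 of the 25, with the treated libraries lower (4.0%, against 3.18% of all genes), and in 0 of the 19. That gene was Scarb2, a lysosomal membrane protein, with 52.2, 45.5 and 49.98 FPKM without the drug and 45.01 and 45.02 FPKM with it.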

How the data were processed

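Total RNA of whole brown adipose tissue was extracted with Trizol, per the labels' protocols, and sequenced on Illumina flow cells. Each table deposited by the authors is that of 1 sample, with an FPKM value for each of 45320 Ensembl identifiers, per the file headers. The submitters' processing notes name CASAVA 1.7 and GRCm38; the annotation release, aligner, counting program and strand setting are not given in the sources used here. GENCODE M21, a GRCm38 annotation, gave symbols and coordinates for 44395 identifiers. Mvd, of the wider list, matched none and was not analysed here.

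FPKM are not counts, so no intervals or floors were given. Genes averaging 1 FPKM or more were compared on log2(FPKM + 0.5) with limma 3.58.1 in R 4.3.3 (variance trend, two-sided, Benjamini-Hochberg over 13527 genes); this scale understates changes of low genes. Tables were handled with Python 3.11.15, pandas 2.3.3 and numpy 2.4.6, and plots drawn with matplotlib 3.10.9. Members and lists were chosen with earlier results of these data known. Every member is given with its levels. Changes are given by rule for members past the threshold or with groups that do not overlap, otherwise for the 2 of smallest p in each role, and Msmo1, Insig1 and Nsdhl were added after their values were seen. Alternatives covered pseudocount, filter, scaling, variance model, weights, the identical tables, a muscle covariate, the gene sets and each library left out; centring on brown adipocyte markers was added after the data were seen. The promoter search first ran over 250 bases before and 50 after each start; the later bases were then dropped so that no transcribed sequence was printed.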

Additional observations from a re-analysis of the deposited data

How the results depend on the processing

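The 6 genes that passed the test became 2 with a pseudocount of 0.1 FPKM, 0 without a filter, 1 with a filter at 5 FPKM, 10 with array weights, 3 centred on the brown adipocyte markers, 1883 with the mean log2 muscle covariate and 271 with the summed one, and 0 to 158 with 1 library left out (158 without untreated 14). Of the sterol genes 0 passed, except 3 of 31 with the mean log2 muscle covariate, where 13.9% of all genes passed. Of these 3, Acat2 had a log2 change of 1.44 (limma adjusted p = 0.0171). The LXR target median was -0.42 centred on the brown adipocyte markers and -0.16 to 0.13 with 1 library left out. It was -0.015 with Abca1 and Abcg1 only and 0.03 with a filter at 5 FPKM. The synthesis median ranged from -0.18 to 0.36, and the synthesis minus LXR score difference from -0.08 to 0.32, with 1 library left out. Scaling moved the median over all genes from 0.06 to -0.04 (quantile), -0.05 (same median) and -0.22 (brown adipocyte centring).

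Of 161 alternative values of the 9 genes given with a change, 141 kept direction and call and 19 reversed. The mean log2 muscle covariate gave Fdps 0.055. Array weights gave Acat2 -0.30, Scap -0.017, Insig2 0.051 and Nr1h3 -0.27, and a synthesis median of -0.26. Centring on the brown adipocyte markers gave Fdft1 -0.0026, Scap -0.10, Stard4 -0.13, Nr1h2 -0.16 and Nr1h3 -0.20. Quantile normalization gave Stard4 -0.019, and scaling to the same median gave Nr1h3 -0.031. With 1 library left out the ranges were -0.37 to 0.0061 for Fdps, -0.31 to 0.90 for Acat2, -0.055 to 0.42 for Scap, -0.28 to 0.046 for Insig2, -0.024 to 0.26 for Nr1h2 and -0.26 to 0.30 for Nr1h3. The cause was not tested.

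No paired analysis was possible because the groups share no replicate numbers. Where 1 treated library was left out, the remaining one was assumed to vary like the untreated group. Read totals are unknown, and the numbers of 3 and 2 libraries limit the precision. The muscle transcripts of untreated 14 and of both treated libraries touch each comparison.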
